A study of Danio rerio with 10 samples.

Results

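Cytochromes P450 are heme enzymes that oxidise small molecules. Most of those in families 1 to 4 sit in the membrane of the endoplasmic reticulum (ER) and receive electrons from the flavoprotein P450 oxidoreductase or from cytochrome b5. In liver, families 1, 2 and 3 are known mainly for the oxidation of drugs, pollutants, steroids and polyunsaturated fatty acids, and family 4 for the hydroxylation of fatty acids. In family 1, the CYP1A genes are classical targets of the aryl hydrocarbon receptor, and in family 3 the mammalian CYP3A genes are classical targets of the pregnane X receptor. The genes described here are the identifiers of the count tables whose gene name begins with cyp1, cyp2, cyp3 or cyp4 followed by a letter, which gave 54 of 32105 identifiers. Family 1 had 5 of them, family 2 had 40, family 3 had 5 and family 4 had 4. They fell into 21 subfamilies, the largest being CYP2K with 10 genes, CYP2AA with 9, CYP2X with 6 and CYP2P with 5. The symbol CYP4V2 stands for 2 identifiers, which are reported separately because the symbol does not tell these paralogs apart.

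All 10 libraries were made from pooled, dissected livers of zebrafish larvae. The transgenic line was Tg(fabp10:nAtf6-cherry; cmlc2:GFP), allele C, in which the hepatocyte promoter of fabp10 drives nAtf6, the nuclear fragment of the ER stress sensor Atf6, and in which GFP in the heart marks carriers. The results therefore come from a single allele and from an overexpressed fragment. At 5 dpf, carriers had been outcrossed to WT TAB 14 fish, and 3 pools of 25 nAtf6 TG livers were compared with 3 pools of 25 livers of non-transgenic siblings from 3 clutches. The RNA of these larvae was depleted of ribosomal RNA, although their labels also name polyA RNA. At 78 hpf, carriers had been crossed with Tg(fabp10a:CAAX-EGFP), a line with green hepatocyte membranes that all larvae of this age shared, and each group consisted of 2 pools of 20 livers, from 2 clutches, with polyA selection. The description of the whole series names this second cross for both ages. Age and library preparation cannot be told apart.

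The 78 hpf libraries carry contradictory labels: a library titled sibling holds counts deposited as Natf6, a library titled transgenic holds counts deposited as SIBS, and the treatment description goes with the deposited names. The contrast reported for 78 hpf is deposited Natf6 minus deposited SIBS, with pools numbered by clutch, and taking the groups from the titles turns the sign of every value. atf6, whose identifier can also collect reads of the transgene, was at 185 and 338 TMM-scaled CPM (a gene's count scaled to a common library total, with library sizes adjusted by trimmed mean of M values factors within each age) in deposited Natf6 and at 85.7 and 45.8 in deposited SIBS. At 5 dpf it was at 440, 540 and 543 CPM in nAtf6 TG pools and at 90.6, 96.9 and 78.0 in sibling pools. The pools deposited as Natf6 thus had more atf6 than those deposited as SIBS, as the nAtf6 TG pools had more than their siblings. HSPA5, HSP90B1 and PDIA4, which the transgene does not encode, were also higher in both Natf6 pools than in both SIBS pools. The ratios of means were 7.70, 7.21 and 10.8, and none of these genes was called at 78 hpf. At 5 dpf their ratios of nAtf6 TG to sibling means were 21.1, 24.7 and 49.0.

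The counts on genes ranged from 17622825 to 22963880 per library at 5 dpf and from 4868321 to 6354867 at 78 hpf, where a count of 3, taken as the limit that a count of 0 allows, is 0.131 to 0.170 and 0.472 to 0.616 CPM. Sibling pool 2 and nAtf6 TG pool 1 stood apart from their groups, with a chi-square per degree of freedom of 73.4 to 77.8 and 48.5 to 53.4 against their group mates. nAtf6 TG pools 2 and 3 differed by only 2.70, the least of any pair within a group, and sibling pools 1 and 3 by 11.6. Whether nAtf6 TG pools 2 and 3 are independent of each other was not tested. Of 12 hepatocyte marker genes, 4 were called lower in nAtf6 TG livers at 5 dpf, with a median log2 fold change of −0.73, and none was at 0. Over all genes tested, 7.48% were called lower and 13.7% higher, which is the background for the marker counts here. Hepatocyte markers summed to 47909, 86224 and 54024 CPM in sibling pools 1, 2 and 3, and to 33645 to 38066 in nAtf6 TG pools. Exocrine pancreas markers summed to 1955 to 4782 CPM in sibling pools and 1125 to 1914 in nAtf6 TG pools, and all 13 had fold changes below 0, with 5 called. Intestine markers summed to 182 to 376 CPM in sibling pools and 86.5 to 181 in nAtf6 TG pools. Median log2 fold changes were −1.40 for exocrine pancreas, −1.14 for intestine, −1.08 for muscle and −0.98 for erythrocyte markers. They were 0.22 for endothelium, 0.07 for biliary, 0.23 for kidney tubule and 1.44 for macrophage markers. Yet biliary markers summed to 425 to 472 CPM in sibling pools and 606 to 784 in nAtf6 TG pools. Macrophage markers were low and their sums overlapped, at 9.19 to 36.2 CPM in sibling pools and 11.3 to 36.9 in nAtf6 TG pools. Of 13 macrophage identifiers, 8 were tested, with log2 fold changes from −3.15 to 2.36. The sums of endothelium and kidney tubule markers also overlapped between groups. The part of these other cell types in the results was not tested. Fewer cells of a type and less RNA per cell cannot be told apart in pooled tissue.

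Most P450 genes were lower in nAtf6 TG livers at 5 dpf. Of the 54, 47 passed the filter on low counts, and 21 of these were called at an adjusted p under 0.05 (edgeR's quasi-likelihood test, Benjamini-Hochberg adjustment over all 18470 genes tested). The 18 that fell made up 38.3% of those tested, where 7.48% of all genes tested fell. The 3 that rose (cyp3c4, cyp3c3 and CYP2U1) made up 6.38%, where 13.7% of all genes tested rose. In either direction, 44.7% of the P450 genes tested were called, against 21.2% of all genes. The median log2 fold change was −0.99 over the P450 genes tested and −0.04 over all genes tested, and 39 of 47 had a fold change below 0 (83.0%, against 52.3% of all genes). At an unadjusted p under 0.05, 31 of the 47 passed (66.0%, against 37.2% of all genes). In 25 genes every nAtf6 TG pool lay below every sibling pool (53.2%, against 17.2% of all genes), and in 3 every nAtf6 TG pool lay above (6.38%, against 22.6%). A gene can pass the filter through the group in which it is high. Of the 41 P450 genes with at least 10 counts in every library, 19 fell and 3 rose when only such genes were fitted. The share of all genes that fell under this filter is not given here, so this count alone shows no excess.

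The number of calls depended on single pools. It was 5 without nAtf6 TG pool 2, 6 without nAtf6 TG pool 3, 13 without sibling pool 1 and 10 without sibling pool 3, each of which leaves a group that holds the pool standing apart and only 1 other. It was 29 without nAtf6 TG pool 1, 26 without sibling pool 2 and 43 of 49 tested without both. The background moved likewise, from 3913 genes called to 1361 without nAtf6 TG pool 2 and to 13690 without both pools. The shares of all genes tested that were called in these refits are not given here, so these counts alone show no excess of P450 genes. With nAtf6 TG pools 2 and 3, the most alike pair, summed, 6 P450 genes were called. cyp2aa2, cyp2p7, cyp2x7, cyp3a65 and cyp3c4 were called with every single pool left out. The other 16 lost their call without nAtf6 TG pool 2, and all of them but cyp2n13 also without nAtf6 TG pool 3. No called P450 gene changed sign in any of the 15 alternative settings. The groups of each called gene did not overlap, so refits of the same pools could hardly turn a sign.

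**Figure D1:**
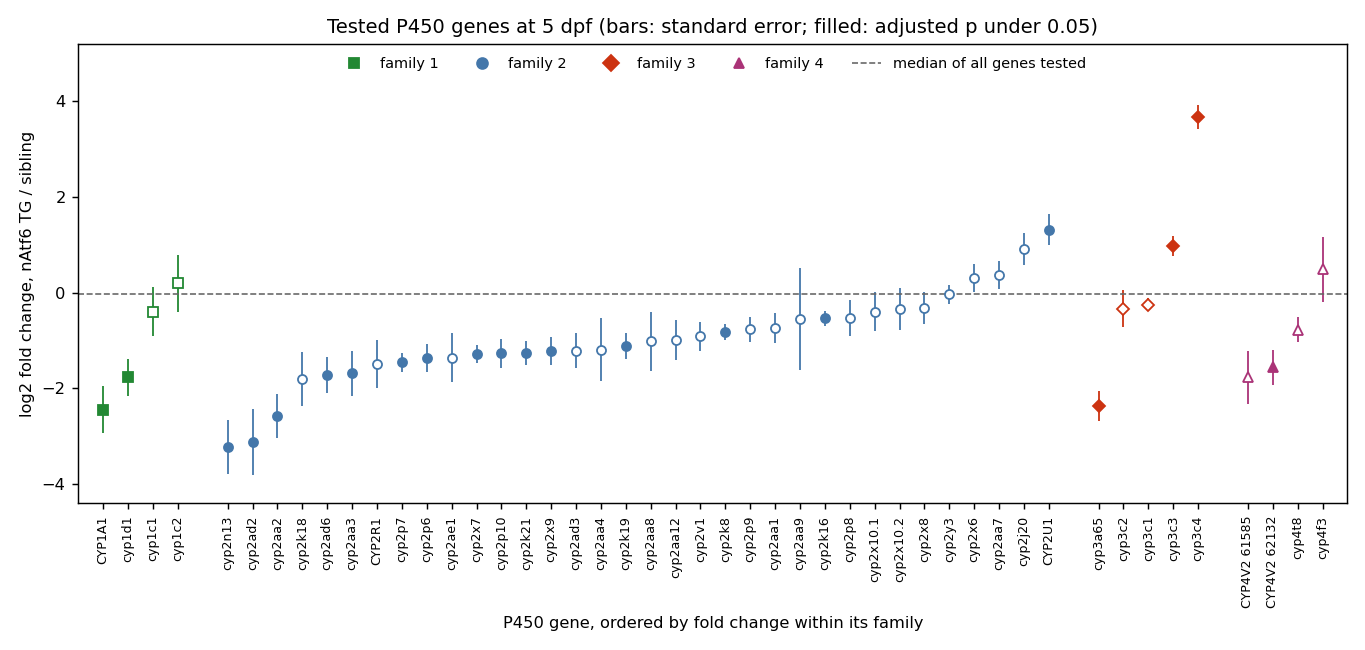
Log2 fold change at 5 dpf (nAtf6 TG over sibling, y axis) of each of the 47 P450 genes tested, in order of fold change within families 1 to 4 (x axis), with standard errors as bars and filled symbols for an adjusted p under 0.05. Family 3 spans from −2.37 (cyp3a65) to 3.67 (cyp3c4), while most genes of families 1, 2 and 4 lie below the dashed median of all genes tested.

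Family 1 oxidises polycyclic aromatic hydrocarbons and other planar molecules. CYP1A1, known in zebrafish as cyp1a and the standard reporter of aryl hydrocarbon receptor activity, fell. Sibling pools held 1638, 1765 and 1687 TMM-scaled CPM and nAtf6 TG pools 581, 171 and 184, which is 1697 ± 64.0 against 312 ± 234 (SD, n = 3 pools each). The groups did not overlap, and nAtf6 TG pool 1 lay closest to the siblings. The log2 fold change was −2.44 (SE 0.50, edgeR adjusted p = 0.0145). The call was lost without nAtf6 TG pool 2 (adjusted p = 0.0601) or pool 3 (adjusted p = 0.0636), and without nAtf6 TG pool 1 the fold change was −3.23. CYP1A1 took 96.6% to 97.7% of the family's counts in sibling pools and 93.4% to 96.3% in nAtf6 TG pools.

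cyp1d1, whose human counterpart is a pseudogene, also fell, from 35.8, 60.3 and 34.7 CPM in sibling pools to 20.3, 8.84 and 9.25 in nAtf6 TG pools. No nAtf6 TG pool reached a sibling pool (log2 fold change −1.77, SE 0.39, edgeR adjusted p = 0.0193, lost without nAtf6 TG pool 2 or 3, adjusted p = 0.0884 in each). cyp1c1 and cyp1c2, fish genes that neighbour each other in the RefSeq annotation, were low and were not called. cyp1c1 held 3.05, 0.889 and 4.13 CPM in sibling pools and 1.39, 2.14 and 2.66 in nAtf6 TG pools, with overlapping groups. cyp1c2 stayed under 1 CPM in every 5 dpf pool. CYP1B1, which in mammals metabolises oestradiol and acts in eye development, had 4 to 14 counts per library at 5 dpf and was not tested.

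**Figure D2:**
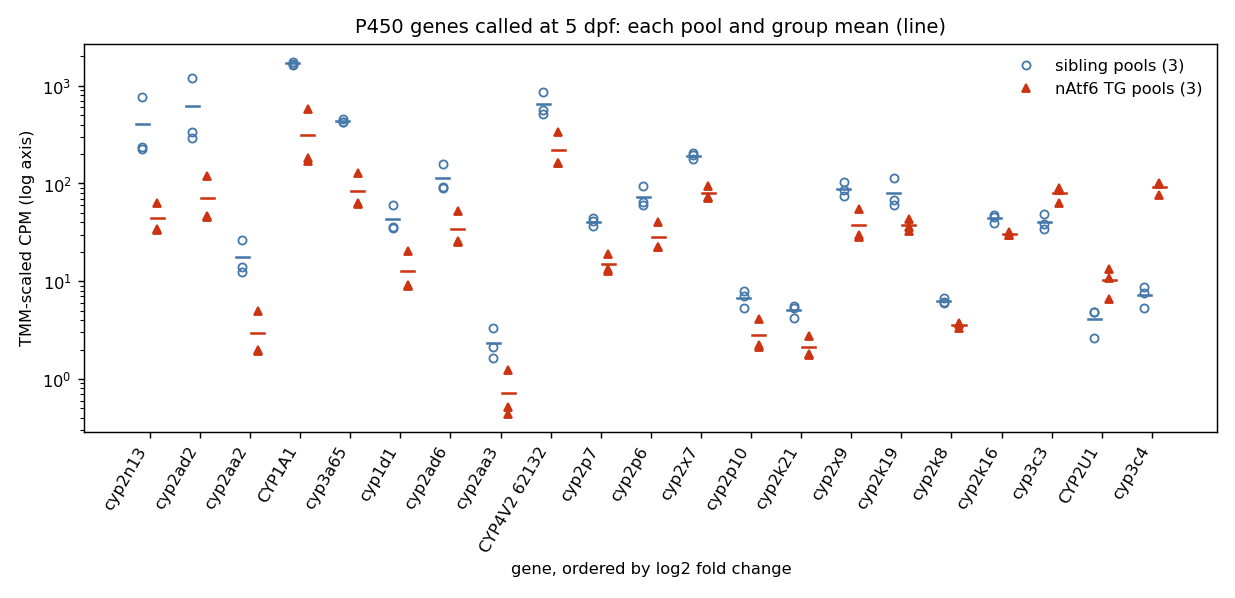
TMM-scaled CPM (log axis) in each sibling pool (open circles) and nAtf6 TG pool (filled triangles) for the 21 P450 genes called at 5 dpf, ordered by log2 fold change, with lines at the group means. In all 21 genes the sibling and nAtf6 TG pools do not overlap, and nAtf6 TG pool 1 (581 CPM for CYP1A1) is the triangle nearest the circles in most genes that fell.

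Family 2 is the largest and most varied P450 family of fish. Of its 34 genes tested, 14 fell and CYP2U1 alone rose at 5 dpf, with a median log2 fold change of −1.06. The background for this count and for those of the runs below is 7.48% of all genes fallen and 13.7% risen. Many of the genes lie side by side in the genome, so the runs below follow the gene order of the RefSeq annotation (assembly GRCz12tu, in which 50 of the 54 were placed). A run joins P450 genes with fewer than 12 other genes between neighbours. Near-identical neighbours can share reads, and such reads may be lost or split in counting, so values of single genes in a run are uncertain to that extent.

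The most lowered genes lie in a run of 11, in the order cyp2n13, cyp2ad6, cyp2ad2, cyp2v1, cyp2ad3, cyp2p6, cyp2p7, cyp2p8, cyp2p9, cyp2p10 and cyp2j20. The mammalian relatives of this group, the CYP2J enzymes, convert arachidonic acid to epoxides, and killifish Cyp2n and Cyp2p enzymes do so too. All 11 were tested, 6 fell and 10 had fold changes below 0, the exception being cyp2j20 at the end of the run. cyp2n13 went from 224, 766 and 238 CPM in sibling pools to 63.5, 33.8 and 34.6 in nAtf6 TG pools (log2 fold change −3.22, SE 0.56, edgeR adjusted p = 0.00856). cyp2ad2 went from 294, 1209 and 337 CPM to 120, 46.1 and 45.4 (log2 fold change −3.12, SE 0.68, edgeR adjusted p = 0.0192). In both genes the groups were apart, and sibling pool 2 held several times the level of the other sibling pools. Without it the log2 fold changes were −2.37 for cyp2n13 (edgeR adjusted p = 0.00268) and −2.14 for cyp2ad2 (edgeR adjusted p = 0.013), while without nAtf6 TG pool 2 neither was called (adjusted p = 0.0511 and 0.0912).

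cyp2ad6 fell from 89.9, 158 and 92.6 CPM to 52.3, 25.7 and 25.2 (log2 fold change −1.72, SE 0.37, edgeR adjusted p = 0.0176). cyp2p7 held 36.8, 41.1 and 44.0 CPM in sibling pools and 18.8, 12.6 and 13.3 in nAtf6 TG pools. It had the tightest groups of the run and the lowest adjusted p there (log2 fold change −1.45, SE 0.20, edgeR adjusted p = 0.00321). cyp2p6 and cyp2p10 fell as well, with log2 fold changes of −1.37 and −1.27, and were called in 3 and 2 of the 6 fits that left out 1 pool. The neighbours cyp2p8 and cyp2p9 were not called, with log2 fold changes of −0.53 (SE 0.37) and −0.77 (SE 0.27), and neither were cyp2ad3 (−1.21, SE 0.36) and cyp2v1 (−0.91, SE 0.31). cyp2j20 held 4.80, 9.42 and 4.69 CPM in sibling pools and 8.38, 14.1 and 12.9 in nAtf6 TG pools. Its groups overlapped through sibling pool 2 and nAtf6 TG pool 1 (log2 fold change 0.91, SE 0.33, edgeR adjusted p = 0.0866).

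The CYP2AA genes, a subfamily of fish, lie in a run of 11 with cyp2ae1 at its end, and 10 of the 11 are among the genes described here. Of the 9 tested, 2 fell and 8 had fold changes below 0. cyp2aa2 fell from 14.1, 26.3 and 12.5 CPM to 4.96, 1.98 and 1.93 (log2 fold change −2.58, SE 0.46, edgeR adjusted p = 0.00878), with every nAtf6 TG pool under every sibling pool. Its neighbour cyp2aa3 was lower in level, at 2.11, 3.32 and 1.63 CPM against 1.23, 0.439 and 0.514. It also fell (log2 fold change −1.69, SE 0.47, edgeR adjusted p = 0.0429) but was called in only 1 of 6 fits that left out a pool. The genes of the run with the most counts, cyp2aa12 and cyp2aa1, were not called. cyp2aa12 held 72.1, 201 and 70.6 CPM in sibling pools and 70.6, 52.4 and 50.0 in nAtf6 TG pools, so that sibling pool 2 stood far above the other 5 pools. cyp2aa4 showed another split, with 4.16 CPM in nAtf6 TG pool 1, within the siblings' 3.41 to 4.86, and 0.714 and 0.685 in the other nAtf6 TG pools. Only cyp2aa7 of this run had a fold change above 0 (0.37, SE 0.30, not called).

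CYP2K enzymes are best known from rainbow trout, where CYP2K1 hydroxylates lauric acid and activates aflatoxin. Of 10 genes, 5 were tested, all with fold changes below 0, and 4 fell, with log2 fold changes from −1.26 to −0.53. cyp2k19 held 59.6, 115 and 67.5 CPM in sibling pools and 43.0, 32.9 and 35.9 in nAtf6 TG pools (log2 fold change −1.11, SE 0.28, edgeR adjusted p = 0.0293). cyp2k21 went from 4.17, 5.63 and 5.38 CPM to 2.78, 1.76 and 1.80, and cyp2k8 from 6.69, 6.10 and 5.98 to 3.74, 3.62 and 3.30. Their log2 fold changes were −1.26 (SE 0.26) and −0.82 (SE 0.16), with edgeR adjusted p = 0.0146 and 0.0143. cyp2k16 fell least of all called genes, from 39.2, 47.9 and 45.4 CPM to 32.1, 29.4 and 30.0 (log2 fold change −0.53, SE 0.15, edgeR adjusted p = 0.0443). Its call was lost under DESeq2, with no scaling between libraries, with no filter and with the replicate number as a block. It was also lost in 1 model of all 10 libraries and with nAtf6 TG pools 2 and 3 summed. Of the 6 fits that left out a pool, 2 called it. cyp2k18 had the largest fold change of the subfamily but overlapping groups, since sibling pool 2 held 5.16 CPM against 18.5 and 21.0 in the other sibling pools (log2 fold change −1.80, SE 0.57, edgeR adjusted p = 0.0619).

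Of the 6 CYP2X genes, another subfamily described mainly in fish, cyp2x7 and cyp2x9 fell. cyp2x7 held 178, 204 and 196 CPM in sibling pools and 94.5, 73.3 and 71.3 in nAtf6 TG pools (log2 fold change −1.27, SE 0.18, edgeR adjusted p = 0.00409). The spread within each group was small against this difference, and the call held in each setting tried. cyp2x9 fell from 75.3, 103 and 84.9 CPM to 54.7, 28.4 and 29.9 (log2 fold change −1.22, SE 0.29, edgeR adjusted p = 0.0253). The genes between and beside them were low: cyp2x6 and cyp2x8 stood at 2.31 to 6.08 CPM in all 5 dpf pools, with overlapping groups and log2 fold changes of 0.31 and −0.31.

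Among the genes of family 2 that stand alone, cyp2y3 had the most counts and was not called. Sibling pools held 842, 871 and 924 CPM and nAtf6 TG pools 1010, 791 and 771, with nAtf6 TG pool 1 above and the other nAtf6 TG pools below all siblings. The log2 fold change was −0.04 (SE 0.20, edgeR adjusted p = 0.911), and its sign turned under several settings. While other genes of the family fell, cyp2y3 made up a mean of 28.1% of the family's counts in sibling pools and 51.3% (47.7% to 53.3%) in nAtf6 TG pools.

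CYP2R1, the main vitamin D 25-hydroxylase of liver, was not called. Sibling pools held 46.6, 167 and 45.9 CPM and nAtf6 TG pools 34.8, 29.9 and 27.9, so that the groups were apart but sibling pool 2 set most of the difference. The log2 fold change was −1.49 (SE 0.51, edgeR adjusted p = 0.0764), and without sibling pool 2 it was −0.56 and was called (edgeR adjusted p = 0.024). CYP2U1, which hydroxylates long-chain fatty acids, rose from 4.80, 2.61 and 4.82 CPM to 6.56, 10.9 and 13.2 (log2 fold change 1.32, SE 0.33, edgeR adjusted p = 0.0305). No sibling pool reached a nAtf6 TG pool, but the call was lost without nAtf6 TG pool 2 (adjusted p = 0.105) or pool 3 (0.117) and without sibling pool 1 (0.0809) or pool 3 (0.0761).

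Family 3 held genes that changed strongly in opposite directions. cyp3a65, the zebrafish counterpart of human CYP3A4, is expressed in liver and intestine. It fell from 421, 459 and 424 CPM in sibling pools to 128, 61.9 and 62.7 in nAtf6 TG pools, which is 435 ± 21.3 against 84.3 ± 38.2 (SD, n = 3 pools each). The log2 fold change was −2.37 (SE 0.32, edgeR adjusted p = 0.00318), and it lay between −2.78 and −2.16 with each pool left out. Intestine markers were lower in nAtf6 TG pools too, at 181, 87.4 and 86.5 CPM in all against 349, 182 and 376 in sibling pools. Sibling pool 2, which stood apart from its group, had a TMM factor of 0.758, against 1.11 in sibling pools 1 and 3. Its cyp3a65 level was the highest only after this scaling, since its raw count was 7751 against 9386 and 9850 in those pools. The part of intestinal cells in the cyp3a65 values was not tested.

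The 4 CYP3C genes, a subfamily of fish, lie in 1 run in the order cyp3c4, cyp3c3, cyp3c2 and cyp3c1, and did not move together. cyp3c4 rose from 8.66, 5.27 and 7.57 CPM in sibling pools to 75.4, 98.5 and 101 in nAtf6 TG pools. The means were 7.17 ± 1.73 and 91.7 ± 14.2 (SD, n = 3 pools each), a 12.8-fold difference and the largest of the P450 genes tested. The log2 fold change was 3.67 (SE 0.25, edgeR adjusted p = 0.000193) and stayed between 3.52 and 3.82 with each pool left out. Its neighbour cyp3c3 rose from 34.6, 48.3 and 38.3 CPM to 63.3, 85.4 and 89.1 (log2 fold change 0.97, SE 0.21, edgeR adjusted p = 0.0182), called in 2 of the 6 fits that left out a pool. cyp3c1 was close between groups, at 52.6, 51.7 and 54.2 CPM against 45.3, 44.5 and 43.6. All nAtf6 TG pools lay just below all sibling pools, and the gene was not called (log2 fold change −0.25, SE 0.14, edgeR adjusted p = 0.231). cyp3c2 stood at 4.27 to 6.37 CPM in sibling pools and 2.53 to 6.72 in nAtf6 TG pools and was not called (log2 fold change −0.33, SE 0.38).

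**Figure D3:**
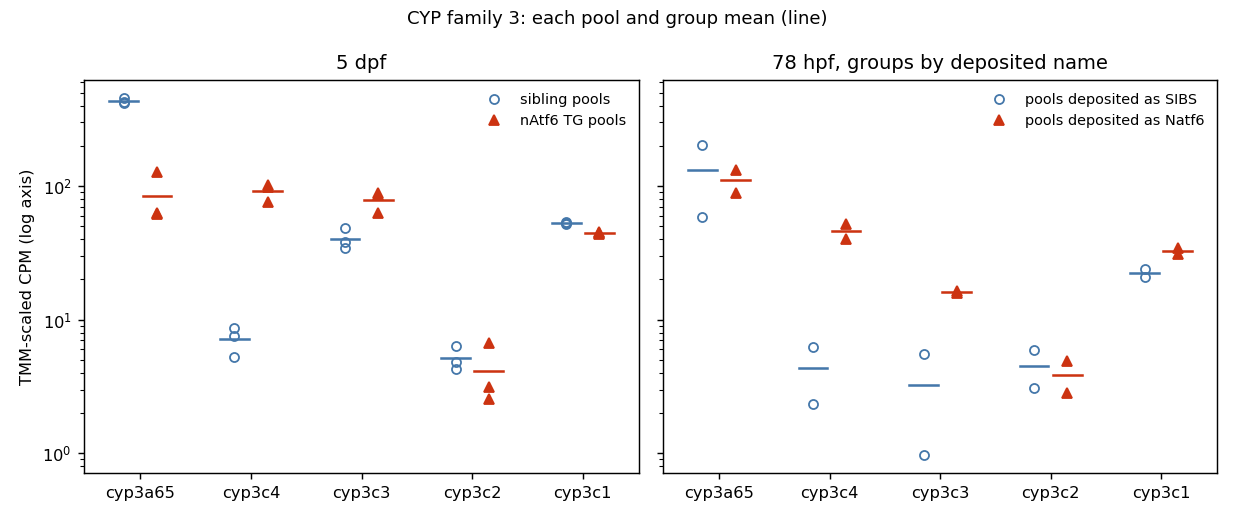
TMM-scaled CPM (log axis) of the 5 family 3 genes in each pool, at 5 dpf (left) and at 78 hpf by deposited name (right), with lines at the group means. cyp3c4 stands at 75.4 to 101 CPM in nAtf6 TG pools against 5.27 to 8.66 in sibling pools at 5 dpf, and at 40.0 and 51.8 in deposited Natf6 against 6.29 and 2.33 in deposited SIBS, while cyp3a65 is apart between groups only at 5 dpf.

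The makeup of family 3 differed accordingly between groups. cyp3a65 took 79.9% to 80.7% of the family's counts in sibling pools and 21.0% to 40.2% in nAtf6 TG pools. cyp3c4 made up 23.6% to 33.9% and cyp3c3 19.8% to 29.8% in nAtf6 TG pools, where cyp3c3 had 6.63% to 8.49% in sibling pools.

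In family 4, 1 of 4 genes tested fell, where 7.48% of all genes tested fell. Human CYP4V2 hydroxylates fatty acids at their end and is mutated in a crystalline dystrophy of the retina. Of the identifiers with this symbol, ENSDARG00000062132 had the most counts of the family, at 512, 871 and 566 CPM in sibling pools and 336, 162 and 161 in nAtf6 TG pools. The groups were apart and the gene fell (log2 fold change −1.56, SE 0.37, edgeR adjusted p = 0.0241), with the call lost without nAtf6 TG pool 2 (adjusted p = 0.119) or 3 (0.117) and without sibling pool 1 (0.0525) or 3 (0.0623). ENSDARG00000061585 held 193, 174 and 202 CPM against 112, 26.7 and 28.4. Here the siblings agree closely and nAtf6 TG pool 1 lies far above its group mates (log2 fold change −1.77, SE 0.55, edgeR adjusted p = 0.0591), and without that pool the gene was called (log2 fold change −2.76, edgeR adjusted p = 0.00024). cyp4t8, of a fish subfamily, held 116, 193 and 123 CPM against 102, 73.8 and 77.2 and was not called (log2 fold change −0.77, SE 0.25, edgeR adjusted p = 0.0692). cyp4f3, named after the human leukotriene hydroxylase, had 1 to 13 counts per library and was not called.

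As a share of all counts on genes, the 4 families together took 0.618%, 0.641% and 0.654% in sibling pools and 0.365%, 0.230% and 0.226% in nAtf6 TG pools, a ratio of means of 2.33. Each family's share was lower in every nAtf6 TG pool than in every sibling pool. Family 1 had the largest ratio of sibling to nAtf6 TG means, 5.14, which follows CYP1A1, and its share was 0.186%, 0.138% and 0.191% against 0.0613%, 0.0189% and 0.0200%. Family 2 had a ratio of 1.85 (0.283%, 0.366% and 0.307% against 0.215%, 0.154% and 0.148%). Family 3 had the smallest ratio, 1.71, and families 2 and 3 thus kept the largest parts of their share. Family 4 had a ratio of 2.57, at 0.0912%, 0.0938% and 0.0984% against 0.0559%, 0.0272% and 0.0272%. By genes, the median log2 fold changes were −1.08 over 4 genes tested in family 1, −1.06 over 34 in family 2, −0.25 over 5 in family 3 and −1.17 over 4 in family 4. No test was made of a difference between families.

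**Figure D4:**
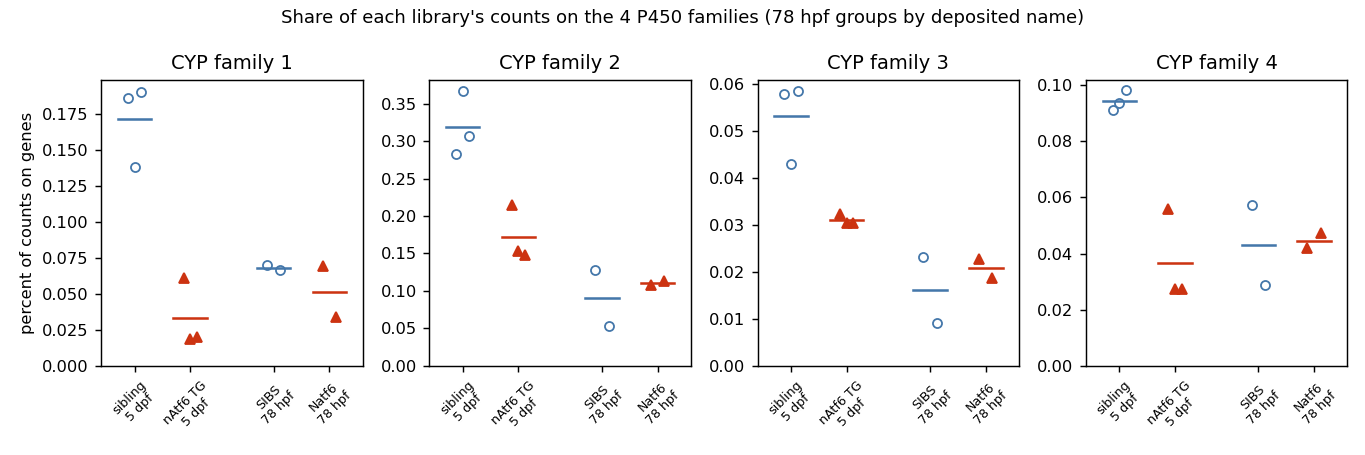
Percent of the counts on genes that fell on each P450 family (y axis, starting at 0, with its own scale for each family), by pool, with lines at the group means. At 5 dpf each nAtf6 TG pool lies below each sibling pool in all 4 families, while at 78 hpf the pools deposited as Natf6 and SIBS overlap in all 4 families.

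The 7 genes not tested at 5 dpf were CYP1B1, cyp2aa11, cyp2k6, cyp2k17, cyp2k20, cyp2k22 and cyp2k31. Apart from CYP1B1, they had at most 17 counts in any library. cyp2k6 had 16, 0 and 12 counts in sibling pools and 1, 2 and 3 in nAtf6 TG pools. cyp2k22 and cyp2k31 had no count in nAtf6 TG pools and at most 4 in sibling pools, so no fold change is given.

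At 78 hpf, 34 of the 54 genes were tested. None was called, and neither was any of the 14555 genes tested (0.0%), by edgeR's quasi-likelihood test. At an unadjusted p under 0.05, 869 of all genes (5.97%) and 3 P450 genes (8.82%) passed, all 3 higher in deposited Natf6, where 3.39% of all genes were higher and 2.58% lower. The median log2 fold change was −0.22 over the P450 genes and −0.02 over all genes, and without SIBS pool 1 it was 0.47. Of the 34, 19 had a fold change below 0 (55.9%, against 52.1% of all genes). The groups did not overlap for 7 genes higher in deposited Natf6 (20.6%, against 19.9% of all genes) and 3 lower (8.82%, against 19.3%). Markers of other tissues differed sharply between these pools. Exocrine pancreas markers summed to 234 and 7638 CPM in deposited Natf6 against 59.6 and 31.6 in deposited SIBS, and muscle and erythrocyte markers were highest in SIBS pool 2, at 3001 and 978 CPM. Their part in the values below was not tested.

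cyp3c4 was the P450 gene with the largest difference at 78 hpf as well, at 40.0 and 51.8 CPM in deposited Natf6 and 6.29 and 2.33 in deposited SIBS. The log2 fold change was 3.40 (SE 0.54, unadjusted p = 0.00233 and adjusted p = 0.343 by edgeR). It was called by DESeq2, which called 180 genes (adjusted p = 1.6e-05), and in 1 edgeR model of all 10 libraries, which called 117 (adjusted p = 0.00687). cyp3c3 held 15.7 and 16.3 CPM against 5.55 and 0.970 (log2 fold change 2.28, SE 0.80, edgeR unadjusted p = 0.0406, adjusted p = 0.814). cyp2j20 held 6.93 and 9.30 CPM against 3.15 and 1.16 (log2 fold change 1.90, SE 0.60, edgeR unadjusted p = 0.029, adjusted p = 0.811). In these genes both Natf6 pools lay above both SIBS pools.

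The genes that fell most at 5 dpf overlapped between groups at 78 hpf. CYP1A1 was at 645 and 322 CPM in deposited Natf6 and at 697 and 581 in deposited SIBS (log2 fold change −0.40, SE 0.40). cyp3a65 was at 132 and 88.6 CPM against 204 and 59.0 (log2 fold change −0.25, SE 0.65). SIBS pool 1 held much more of several genes of family 2 than the other 3 pools, whatever their group. cyp2n13 was at 56.3 CPM there against 2.46 to 9.54 elsewhere, and cyp2ad2 at 90.7 against 11.6 to 20.5. cyp2aa12 was at 19.3 CPM there and at 3.69 to 4.16 in the other pools. Hepatocyte markers were also highest in SIBS pool 1, where they summed to 51016 CPM, against 21525 to 30594 in the other pools. Their part in these values was not tested. The shares of the families overlapped too: together they took 0.243% and 0.213% of counts in deposited Natf6 and 0.278% and 0.158% in deposited SIBS.

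Whether the response differed between ages was tested in 1 model of all 10 libraries, as the 78 hpf contrast by deposited name minus the 5 dpf contrast. Of 50 P450 genes tested, none was called by edgeR (lowest adjusted p = 0.212, cyp3c1), where 14 of 20595 genes were called (0.068%). At an unadjusted p under 0.05, 11 P450 genes passed (22.0%, against 13.2% of all genes), each with a higher fold change at 78 hpf than at 5 dpf. Among all genes, 5.27% passed upward and 7.97% downward, and 39 of the 50 P450 genes were on the higher side (78.0%, against 53.1%). Among them, CYP1A1 differed by 2.14 (SE 0.74), cyp3a65 by 2.20 (SE 0.72), cyp2p9 by 2.40 (SE 0.83) and CYP2R1 by 2.34 (SE 0.85) on the log2 scale. For cyp3c4 the difference in this model was −0.15 (SE 0.54, unadjusted p = 0.78 by edgeR). The separate fits of each age gave log2 fold changes of 3.67 at 5 dpf and 3.40 at 78 hpf, where this model gave 3.55 at 78 hpf. Without nAtf6 TG pool 1, CYP1A1 (edgeR adjusted p = 0.0183) and CYP4V2 ENSDARG00000061585 (edgeR adjusted p = 0.0238) were called. With groups by title, 5 P450 genes were called (cyp2aa2, cyp2j20, cyp2n13, cyp3c3 and cyp3c4), among 1786 genes. The shares of all genes tested that were called under these settings are not given here, so these calls alone show no excess of P450 genes. Of the 33 genes tested at both ages, 17 had fold changes below 0 at both, 3 above 0 at both, 12 below 0 only at 5 dpf and 1 below 0 only at 78 hpf.

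**Figure D5:**
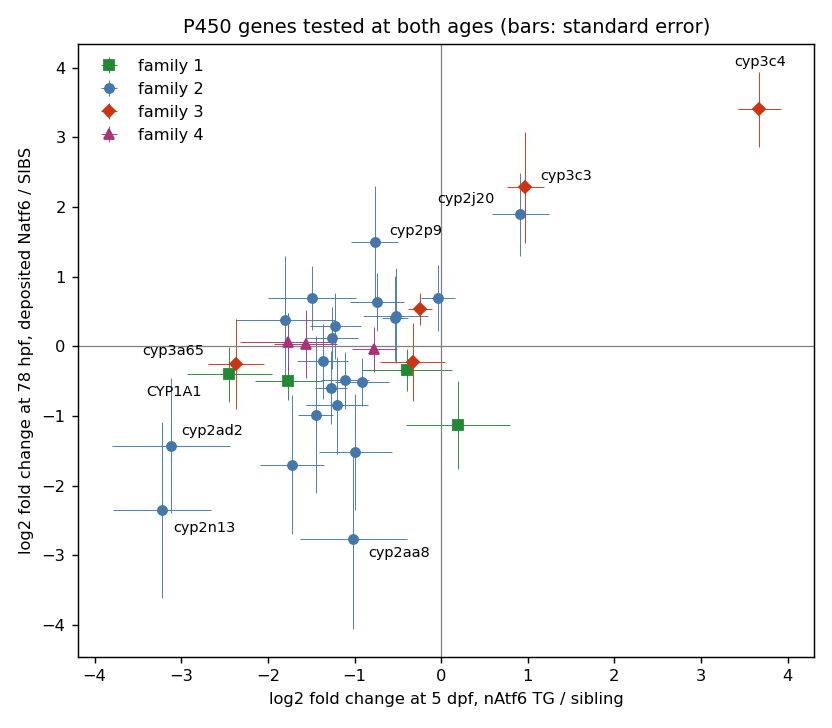
Log2 fold change at 5 dpf (x axis, nAtf6 TG over sibling) and at 78 hpf (y axis, deposited Natf6 over SIBS) of the 33 P450 genes tested at both ages, by family, with standard errors as bars. cyp3c4, cyp3c3 and cyp2j20 are the 3 genes above 0 at both ages, and CYP1A1 and cyp3a65 lie far to the left but near 0 on the y axis.

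Genes listed as electron partners of P450 enzymes had calls in the other direction at 5 dpf. Besides P450 oxidoreductase, cytochromes b5 and their reductases, the list holds PGRMC genes. Of its 10 genes tested, 4 rose and none fell, where 13.7% of all genes tested rose and 7.48% fell. The median log2 fold change was 0.34. CYB5A, a cytochrome b5 of the ER, rose from 246, 312 and 273 CPM in sibling pools to 624, 572 and 570 in nAtf6 TG pools (log2 fold change 1.09, SE 0.18, edgeR adjusted p = 0.00716). cyb5b, the outer mitochondrial form, rose by 1.50 (SE 0.25), CYB5R3, a cytochrome b5 reductase, by 0.78 (SE 0.18) and PGRMC2, a heme-binding membrane protein, by 0.56 (SE 0.13). The identifier of POR (P450 oxidoreductase) with the higher counts was at 564, 683 and 501 CPM against 547, 518 and 513, and neither of the pair was called. In heme synthesis, FECH, which inserts iron in the last step, fell by 1.17 (SE 0.22) and PPOX, which acts just before it, fell by 0.78 (SE 0.22) on the log2 scale. FECH held 45.6, 43.1 and 50.9 CPM in sibling pools and 27.4, 18.2 and 16.6 in nAtf6 TG pools. ALAS1, the rate-limiting enzyme in liver, was not called (log2 fold change −0.29, SE 0.32).

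Of 22 receptors and other regulators tested, 4 rose and 2 fell at 5 dpf, where 13.7% of all genes tested rose and 7.48% fell. ahr1a, an aryl hydrocarbon receptor, fell from 10.7, 15.4 and 9.55 CPM to 6.56, 4.17 and 4.88 (log2 fold change −1.19, SE 0.25, edgeR adjusted p = 0.0174). ahr2, the receptor through which dioxins act in zebrafish, held 80.4 to 93.7 CPM in sibling pools and 84.3 to 91.3 in nAtf6 TG pools (log2 fold change 0.02, SE 0.15). tiparp, another classical target of this receptor, rose by 1.38 (SE 0.37). The part of these receptors in the P450 values was not tested. The pregnane X receptor NR1I2 was not called (log2 fold change −0.34, SE 0.17). One of 2 identifiers of VDR, the vitamin D receptor, rose by 1.50 (SE 0.20), CEBPA and CEBPB, liver transcription factors, rose by 1.09 (SE 0.24) and 0.86 (SE 0.20), and rxrgb, a retinoid X receptor, fell by 1.20 (SE 0.29).

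Enzymes of other P450 families and of conjugation also had more calls lower than higher. Over all genes tested, 7.48% fell and 13.7% rose, which is the background for the counts in this paragraph. Of 24 other P450 genes tested, 7 fell and none rose, with a median log2 fold change of −0.48. They were TBXAS1 (thromboxane synthesis), cyp46a1.1 and cyp46a1.2 (cholesterol hydroxylation), CYP51A1 (sterol demethylation), CYP27B1 and CYP24A1 (vitamin D activation and breakdown) and cyp27a2. CYP24A1 went from 629, 742 and 618 CPM to 245, 110 and 111 (log2 fold change −2.10, SE 0.35, edgeR adjusted p = 0.00724), with groups well apart. For CYP27B1 and CYP51A1 sibling pool 2, at 212 and 1071 CPM, stood far above the other siblings, at 14.4 to 15.4 and 243 to 248. Among glucuronosyltransferases 8 fell and 1 rose of 27, among sulfotransferases 6 fell and none rose of 16, and among glutathione transferases 6 fell and 1 rose of 17. Their median log2 fold changes were −0.58, −0.49 and −0.73, all smaller in size than the −0.99 of P450 families 1 to 4, and no test of that difference was made.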

How the data were processed

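Read counts per Ensembl gene in 10 zebrafish liver libraries were analysed. Per the labels' processing notes, the authors used GRCz10, HTSeq and, at 5 dpf, Trimmomatic and TopHat2 2.1.0; the aligner at 78 hpf is not given in the sources used here. The deposited values are whole counts without normalization. Entries that name no gene (35.3% to 47.4% of a 78 hpf library, with 13.4% to 17.3% for reads that aligned to several places) were left out, so near-identical genes can be undercounted. The 5 dpf table holds genes only.

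Counts were fitted in edgeR 4.0.16 (R 4.3.3) with filterByExpr, TMM scaling and the quasi-likelihood test, with Benjamini-Hochberg adjustment over all genes tested and calls at adjusted p under 0.05. Standard errors were derived from the F statistic. CPM are scaled by TMM within each age. Alternatives were DESeq2 1.42.0, other scalings, filters and thresholds, blocks and left-out libraries. The script was tested on simulated data. Symbols came from a table that names 26269 of the identifiers.

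The P450 genes, lists and tests were chosen with earlier results of these data known. The text names each P450 gene called at 5 dpf, the 3 with most counts in each family, all of family 1, and CYP2R1, CYP2U1, cyp3a65 and CYP4V2 for their roles; others were named after their values were seen. The list of heme synthesis genes is not reported here in full. Marker lists for exocrine pancreas, erythrocyte and muscle matched 78.6%, 77.8% and 70.0% of their names, so checks of these 3 lists are void as tests of the whole list. At 78 hpf same-numbered libraries share a clutch by their titles, although the Natf6 library of clutch 2 is deposited as Natf6_3. Their deviations from group means correlated at −0.145 over 14555 genes. With 2 pools per group, crossed pairs must give the same size with the other sign (0.145), so nothing is concluded on pairing. With 2 or 3 pools per group, p-values rest on the spread between these pools.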

Additional observations from a re-analysis of the deposited data

How the results depend on the processing

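No P450 gene called at 5 dpf changed sign under the 15 alternatives, which refits of the same non-overlapping pools could hardly bring about. With nAtf6 TG pools 2 and 3 summed, 6 P450 genes were called (1 higher, 5 lower) among 1417 genes, and without sibling pool 2 and nAtf6 TG pool 1 it was 43 (5 higher, 38 lower) among 13690. With each library left out, calls ranged from 5 to 29 (1 to 4 higher, 4 to 25 lower) among 1361 to 7598 genes. DESeq2 called 25 P450 genes, the model of all 10 libraries 17, and library sizes without scaling 21. Shares of all genes tested are not given for the refits of this section, so their counts alone show no excess of P450 genes. With the replicate number as a block, which the labels do not tie to a clutch at 5 dpf, 21 were called, 17 of them the same, and same-numbered libraries correlated at 0.0915, 0.0697 and −0.0722. The median of family 1 was −0.88 in the model of all 10 libraries, −0.87 with DESeq2, −1.78 where every library had to hold 10 counts, −0.84 with no filter and −1.28 to −0.65 with a library left out; that of family 4 was −0.14 without the CYP4V2 identifiers. Of the genes not called, cyp1c1 (−0.77 to 0.042), cyp1c2 (−0.20 to 0.76) and cyp2y3 (−0.14 to 0.061) turned sign with a library left out, and cyp2y3 also with library sizes only (0.0061), nAtf6 TG pools 2 and 3 summed (0.058) and no filter (0.041).

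At 78 hpf, 1 P450 gene was called, higher, by DESeq2 (180 genes) and by the model of all 10 libraries (117 genes). Where every library had to hold 10 counts 1 gene was called, with no filter 8, and with the clutch as a block, or with crossed clutch numbers (added after seeing the data), 0. The family 3 median was 0.69 in the model of all 10 libraries and 0.13 under the stricter filter. Groups by title turned the medians to 0.22 (all P450 genes), 0.50, 0.21, −0.54 and −0.038 (families 1 to 4). With a library left out, the medians ranged from −0.56 to 0.47 over all, from −0.84 to 0.46 in family 2, from 0.44 to 0.97 in family 3 and from −0.38 to 0.61 in family 4. For the difference between ages, groups by title gave 5 P450 genes and 1786 genes, the stricter filter 77 genes, and the replicate block 0. With a library left out it gave 0 to 2 P450 genes and 0 to 506 genes. The causes of these changes were not tested beyond fewer libraries or genes fitted.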
